A study of Mus musculus with 34 samples.

Results

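Mt1, Mt2 and Mtf1 are the genes described here, 3 of the 13108 gene rows of a count table from mouse hematopoietic stem cells (HSCs) with and without the m6A reader YTHDF2. They were chosen by gene name, and Mt1 was selected on its measured level, because its level parted the genotypes at both ages, with no CTL mouse reaching the lowest CKO mouse. The genotype differences of the 3 genes are therefore given as a description, without a test, and the same mice that chose Mt1 also enter the comparisons of age.

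Mt1 and Mt2 encode metallothioneins, small proteins rich in cysteine that bind zinc and copper ions and buffer them in the cytoplasm. Mtf1 encodes the zinc finger factor MTF-1, which senses free zinc and switches on metallothionein genes through metal response elements in their promoters. Metallothionein transcripts are also known to respond to glucocorticoids, to cytokines of the interleukin 6 family acting through STAT3 and to oxidative stress, and the SLC39 and SLC30 families of transporters carry zinc into and out of the cytoplasm.

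YTHDF2 binds m6A-modified mRNA and promotes its decay, and the series asked what its loss changes in the transcripts of HSCs from young and aged mice. Ythdf2 CKO mice were Ythdf2 fl/fl;Vav-iCre, so exon 2 was deleted in hematopoietic cells, and Ythdf2 CTL mice were Ythdf2 fl/fl without Cre. The floxed allele of both genotypes also fuses GFP to YTHDF2, and all mice were on a C57BL/6 background. HSCs (LSK CD48-CD150+) were sorted in samples of 100 cells from 4 CTL and 4 CKO young mice and from 4 CTL and 5 CKO mice aged for 1 yr, and SMART-Seq2, which amplifies full-length cDNA, gave libraries A and B of each mouse. No treatment other than the deletion is given.

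The mouse was the replicate, with the counts of its libraries A and B summed. Totals were between 1859784 and 7784627 counts per library used and between 2218618 and 10125624 per mouse, and a CTL library with 187034 counts (aged mouse 99, library B) was left out. Levels are CPM, counts scaled to the library size with TMM factors over the 17 mice. The libraries hold no molecular identifiers, so intervals and floors cover counting error only. The 10 HSC markers examined, among them Kit, Ly6a, Slamf1, Procr and Hlf, were counted in every group, with summed levels from 1284 to 2628 CPM. The sums did not overlap between young CTL (1284 to 1546 CPM) and young CKO mice (1682 to 2041 CPM). Neither did Ly6a, at 254.2 to 340.0 and 417.2 to 906.7 CPM. By group median, 4 of the 10 markers were higher and 6 lower in young CKO mice.

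The targeted gene checked the labels. Ythdf2 was at 93.4 to 123.2 CPM in young CTL mice and at 50.3 to 60.3 CPM in young CKO mice, with no overlap. Counts cover the whole gene, so transcripts without exon 2 can still be counted. In aged mice the levels overlapped: the mouse labelled CKO 121 had 188.1 CPM, against 72.4 to 87.8 CPM in the other 4 aged CKO mice, and the mouse labelled CTL 124 had 70.5 CPM, against 142.1 to 179.3 CPM in the other 3 aged CTL mice. Ythdf2 in these mice went against their labels, so the aged results are also given without them for Mt1, Mt2, Mtf1, Pf4 and the listed genes named between genotypes, and the age calls that change without them are named. Y-linked genes were above 10 CPM in 3 of 4 young CTL, 1 of 4 young CKO, 1 of 4 aged CTL and 1 of 5 aged CKO mice, so sex was not balanced between the young genotypes or between young and aged CTL mice.

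The coding sequences are shown because they are what defines a metallothionein and because the genes are paralogs. They come from GENCODE M21 (GRCm38) transcripts Mt1-201 and Mt2-201, are written 5′ to 3′ in frame, and carry cysteine codons in capitals.
Mt1: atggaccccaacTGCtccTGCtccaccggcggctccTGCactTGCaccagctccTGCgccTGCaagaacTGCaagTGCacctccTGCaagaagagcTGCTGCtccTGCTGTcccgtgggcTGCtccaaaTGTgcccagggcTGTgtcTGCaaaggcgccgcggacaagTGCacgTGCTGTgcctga
Mt2: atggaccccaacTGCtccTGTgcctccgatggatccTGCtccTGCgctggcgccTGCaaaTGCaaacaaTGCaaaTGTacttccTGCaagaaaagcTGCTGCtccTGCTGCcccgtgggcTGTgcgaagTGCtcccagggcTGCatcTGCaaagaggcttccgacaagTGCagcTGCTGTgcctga

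Each coding sequence has 186 bases and encodes 61 amino acids, of which 20 (32.8%) are cysteines, and all 20 cysteine codons lie at the same positions. In Mtf1-201, by comparison, 19 of 675 codons (2.81%) are for cysteine. The Mt1 and Mt2 coding sequences are identical at 148 of 186 bases (79.6%). The longest stretch shared by the 2 whole transcripts is 20 bases. The rule by which reads matching both genes were counted is not given in the sources used here, so the split between Mt1 and Mt2 is uncertain to that extent.

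Both genes lie on the forward strand of chromosome 8 of GRCm38 in GENCODE M21, Mt2 (ENSMUSG00000031762.7) from 94172664 to 94173568 and Mt1 (ENSMUSG00000031765.8) from 94179082 to 94180327, with 5513 bases between them. Mtf1 (ENSMUSG00000028890.13) lies on the forward strand of chromosome 4 from 124802104 to 124849800. Promoters of the neighbouring pair are shown because both transcripts were most abundant in the same 4 aged CKO mice. They are the 250 bases before the RefSeq start of each gene (GRCm38.p6, forward strand, chr8:94178839-94179088 for Mt1 and chr8:94172368-94172617 for Mt2), with cores of the metal response element in capitals (cores after the start are not shown).
Mt1: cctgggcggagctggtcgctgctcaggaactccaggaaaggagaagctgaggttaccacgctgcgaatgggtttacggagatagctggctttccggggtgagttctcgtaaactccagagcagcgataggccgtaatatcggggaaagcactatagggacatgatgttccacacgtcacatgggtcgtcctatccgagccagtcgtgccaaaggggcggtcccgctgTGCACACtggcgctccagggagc
Mt2: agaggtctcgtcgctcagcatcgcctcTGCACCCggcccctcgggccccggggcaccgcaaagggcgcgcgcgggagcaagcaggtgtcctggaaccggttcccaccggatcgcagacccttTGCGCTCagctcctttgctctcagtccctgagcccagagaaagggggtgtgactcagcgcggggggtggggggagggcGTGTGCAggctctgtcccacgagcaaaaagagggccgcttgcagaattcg

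The core was searched as TGCACNC or TGCGCNC on both strands in windows that reach from 250 bases before to 50 bases after the start. Mt2 held 4 cores, at positions -223, -128, -50 and 5 from the start, and Mt1 held 3, at -23, 3 and 21. The Mtf1 window held 0, but it began at 124802299, inside the GENCODE gene, so bases before that gene were not searched. All windows follow the RefSeq start, and windows at other starts were not searched. At least 1 core was found in 25.7% of the 32851 windows of the same length in the table, at least 3 in 1.97% and at least 4 in 0.517%. An antioxidant response element (TGACNNNGC, both strands) was found in the Mt2 window at -79 and in 12.4% of all windows, and it was not found in the windows of Mt1 and Mtf1. A STAT motif (TTCNNNGAA, which reads the same on both strands) was in 8.3% of all windows and in none of the 3. A match of letters is a description of the sequence and not a binding site.

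Mt1 was the most abundant of the 3 genes per length in every group. Per kilobase of the main transcript, its median level was 31.2 CPM in young CTL, 130.4 in young CKO, 91.3 in aged CTL and 818.7 in aged CKO mice. The medians of Mt2 on the same scale were 1.01, 6.96, 7.16 and 145.8 CPM per kilobase, and those of Mtf1 were 5.54, 5.30, 6.56 and 5.74 CPM per kilobase. Metallothionein levels thus differed widely between groups while the level of their zinc sensor lay within a narrow range.

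In young CTL mice 1 to 4, Mt1 was at 18.5, 14.5, 15.8 and 23.7 CPM. In young CKO mice 1 to 4 it was at 42.7, 78.6, 78.8 and 64.6 CPM. The groups did not overlap, and the closest mice across them were CTL 4 and CKO 1. The log2 fold change between genotypes was 1.87 (standard error 0.26), that is 3.66-fold. No overlap, with CKO higher, was seen in 309 of the 11526 genes tested (2.68%), and edgeR's quasi-likelihood test called 20 genes (0.174%) at an adjusted p below 0.05 in this comparison, from which nothing is read about Mt1 because the contrast chose it. When Y-linked expression was added as a covariate, the value for Mt1 was 1.53 (standard error 0.25).

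In aged CTL mice 114, 124, 65 and 99, Mt1 was at 45.1, 55.2, 66.4 and 37.6 CPM. In aged CKO mice 122, 78, 81 and 94 it was at 638.5, 657.2, 449.5 and 310.6 CPM, and in the mouse labelled CKO 121 at 72.7 CPM. The separation of the aged groups that chose Mt1 thus rested on a narrow gap between the mouse labelled CKO 121 and CTL mouse 65, whereas the other 4 CKO mice lay far above all CTL mice. The log2 fold change was 3.06 (standard error 0.49), or 8.34-fold, with all mice and 3.35 (standard error 0.30) without mice 121 and 124. No overlap, with CKO higher, was seen in 213 of 11961 genes (1.78%). The quasi-likelihood test in edgeR called 0 genes (0%) in aged mice at an adjusted p below 0.05, and without adjustment 532 genes were higher and 676 lower at that threshold. DESeq2 called 104 genes and the likelihood ratio test of edgeR over libraries called 420.

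**Figure D1:**
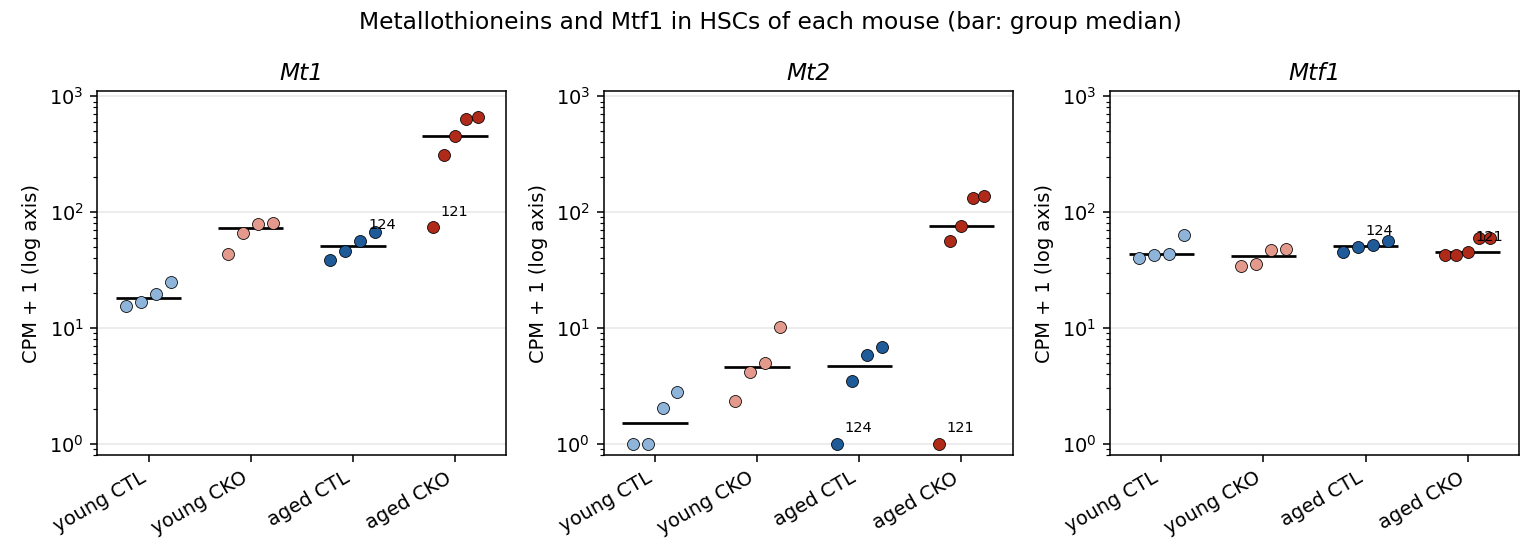
Level of Mt1, Mt2 and Mtf1 in each mouse, as CPM + 1 on a log axis, by group (points: mice, bars: group medians, mice labelled 121 and 124 marked). Mt1 did not overlap between genotypes at either age, Mt2 of 4 aged CKO mice lay at 55.5 to 135.9 CPM with mouse 121 at 0, and Mtf1 overlapped in all groups.

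Mt2, the other broadly expressed metallothionein gene, was scarce except in aged CKO mice. In young CTL mice 1 to 4 it was at 0, 1.81, 0 and 1.03 CPM. In young CKO mice 1 to 4 it was at 3.96, 9.14, 1.34 and 3.16 CPM. The young groups overlapped between CTL mouse 2 and CKO mouse 3, and the log2 fold change was 2.59 (standard error 1.02). The limit of 3 counts was 0.66 CPM in young CTL mouse 1 and 0.436 CPM in young CTL mouse 3, in which no Mt2 read was counted.

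In aged CTL mice 114, 124, 65 and 99, Mt2 was at 4.84, 0, 5.87 and 2.48 CPM. In aged CKO mice 122, 78, 81 and 94 it was at 130.5, 135.9, 74.5 and 55.5 CPM, and in the mouse labelled CKO 121 at 0. The 4 other CKO mice lay above every aged CTL mouse, and mouse 121 alone made the groups overlap. The limit of 3 counts in mice 121 and 124, where Mt2 was not counted, was 0.395 and 0.42 CPM. The log2 fold change was 4.55 (standard error 1.19) with all mice and 4.39 (standard error 0.41) without mice 121 and 124.

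The share of metallothionein counts that fell on Mt2 was highest in aged CKO mice. It was 14.2% to 17.1% in the 4 aged CKO mice with Mt2 counts, from 14.2% (exact 95% Clopper-Pearson interval 13.3% to 15.2%, 5380 counts) in mouse 81 to 17.1% (16.3% to 18%, 7295 counts) in mouse 78. The highest share among the other groups was 11.1% in young CTL mouse 2, where only 90 counts gave an interval of 5.46% to 19.5%. In the mouse labelled CKO 121, 0 of 552 metallothionein counts fell on Mt2, which allows a share of up to 0.543% by the limit of 3 counts (exact interval up to 0.666%). In the mouse labelled CTL 124, 0 of 394 did, which allows up to 0.761% by the same limit (exact interval up to 0.932%). With the counts of both genes added, the log2 fold change between genotypes was 1.91 (standard error 0.25) in young and 3.22 (standard error 0.52) in aged mice, or 3.48 (standard error 0.30) without mice 121 and 124.

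**Figure D2:**
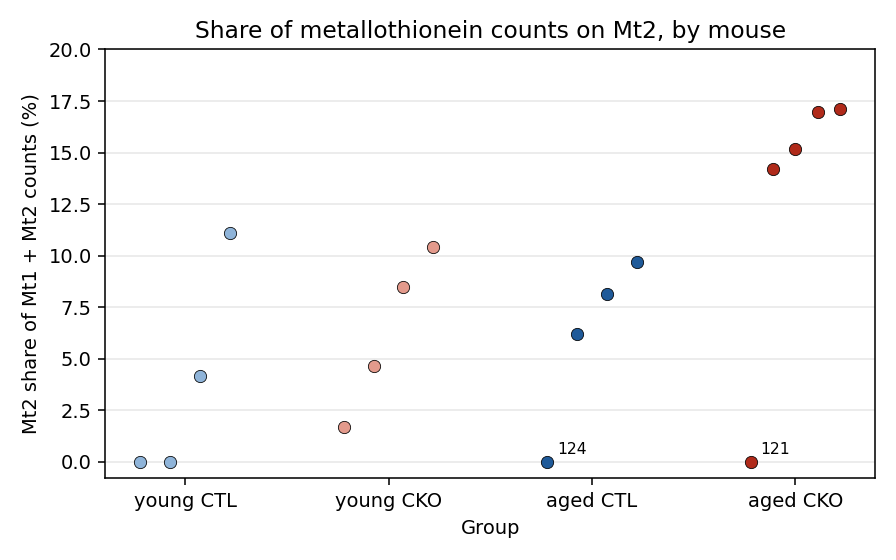
Percentage of Mt1 and Mt2 counts that fell on Mt2 in each mouse, by group (points: mice, labels: mice 121 and 124). The 4 aged CKO mice other than 121 lay at 14.2% to 17.1%, and the remaining 13 mice at 0% to 11.1%.

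Mtf1, the transcript of the zinc sensor, did not separate the genotypes at either age. In young CTL mice 1 to 4 it was at 41.8, 38.9, 42.8 and 63.0 CPM, and in young CKO mice 1 to 4 at 33.2, 34.7, 46.9 and 46.1 CPM. In aged CTL mice 114, 124, 65 and 99 it was at 50.8, 49.3, 44.2 and 55.3 CPM, and in aged CKO mice 121, 122, 78, 81 and 94 at 43.8, 58.5, 41.2, 59.2 and 41.3 CPM. The groups overlapped at both ages. The log2 fold change between genotypes was -0.21 (standard error 0.23) in young and -0.02 (standard error 0.22) in aged mice, both smaller than their standard errors, and -4.77e-05 in aged mice without mice 121 and 124.

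Libraries A and B, each of 100 HSCs of the same mouse, showed how far a metallothionein level repeats. Over the 16 mice with both libraries, they differed on the log2 CPM scale by a median of 0.65 for Mt1 (at most 1.98), 0.70 for Mt2 (at most 4.08) and 0.42 for Mtf1 (at most 1.27). In young mice, 7 of 8 CKO libraries lay above all 8 CTL libraries in Mt1; library B of CKO mouse 1 (27.8 CPM) did not pass library A of CTL mouse 4 (35.4 CPM). In aged mice, 9 of 10 CKO libraries lay above all 7 CTL libraries, and library B of the mouse labelled CKO 121 (62.4 CPM) did not pass library B of CTL mouse 65 (68.6 CPM). These libraries are parts of the mice that chose Mt1, so this separation largely follows from the choice and is only described. Libraries A and B of a mouse are not separate replicates. Mt2 was counted in 2 of 8 young CTL libraries and in 7 of 8 young CKO libraries.

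Taken by letter, the mean log2 difference of Mt1 between genotypes was 1.67 over A libraries and 2.32 over B libraries in young mice. In aged mice it was 3.16 over A (4 CTL mice) and 2.09 over B libraries (3 CTL mice, without mouse 99). The same difference for Mt2 was 0.38 over A and 3.61 over B libraries in young mice, and 4.58 and 2.96 in aged mice. Mtf1 differed in direction between letters in young mice (-0.41 over A, 0.15 over B). These are the values that chose Mt1, split by letter. Its aged B libraries overlapped between genotypes, with CKO from 62.4 CPM and CTL up to 68.6 CPM, and the young difference of Mt2 was larger over the B libraries.

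**Figure D3:**
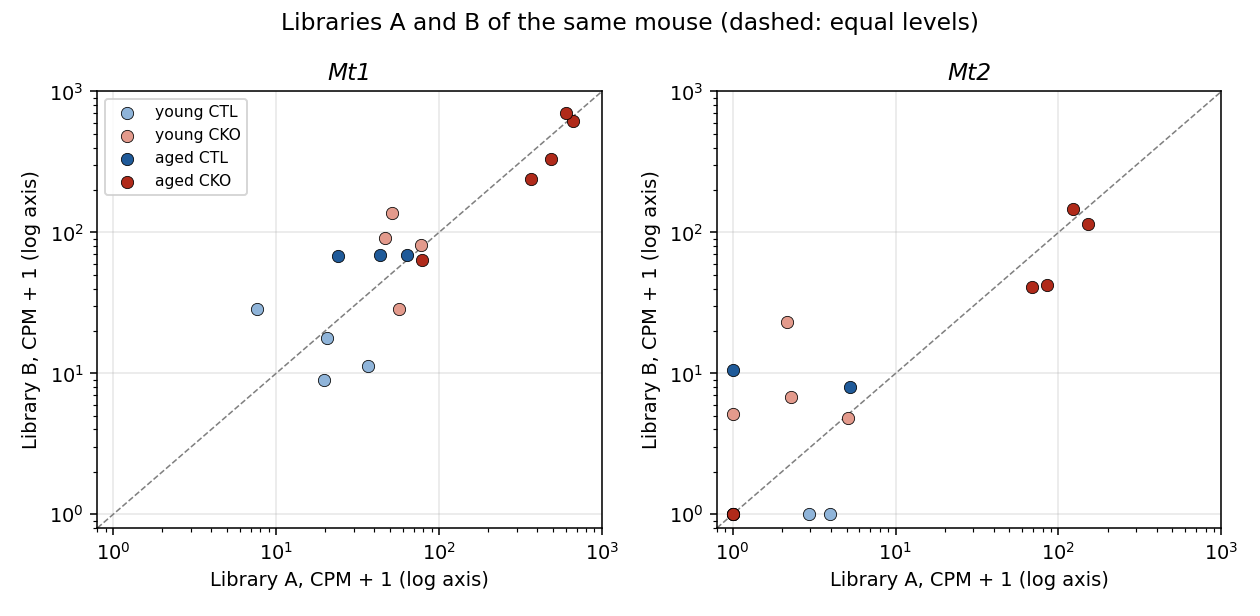
Mt1 and Mt2 in library A against library B of the same mouse, as CPM + 1 on log axes (points: 16 mice by group, dashed line: equal levels, points at 1 on both axes lie on each other). For Mt1 the 4 aged CKO mice other than 121 stand apart in both libraries, at 237.0 to 698.1 CPM, and low Mt2 levels differ most between libraries.

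Age was not used to choose the genes, and it was tested in a fit of all 17 mice with edgeR's quasi-likelihood test over 12352 genes. The test called 1825 genes (14.8%) in CTL mice, 828 of them (6.7%) higher in aged mice, and 2045 genes (16.6%) in CKO mice, 891 of them (7.21%) higher. Young and aged libraries carry different sample codes in the labels, so age and a difference in library handling between the code series cannot be told apart. Sex was also unbalanced, and with Y-linked expression as a covariate Mt1 was 1.42 higher on the log2 scale in aged CTL mice (adjusted p = 0.0440 by edgeR) and 2.71 higher in aged CKO mice (adjusted p = 0.000296). The median log2 fold change over all genes was 0.11 in CTL and 0.07 in CKO mice.

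Mt1 was higher in aged than in young mice of both genotypes. In CTL mice it went from 14.5 to 23.7 CPM at the young age to 37.6 to 66.4 CPM at 1 yr, without overlap. On the log2 scale the fold change was 1.51 (standard error 0.42) with an adjusted p = 0.0214 by edgeR, and 1.47 (adjusted p = 0.00139) without mice 121 and 124. Leaving out young CTL mouse 1, 2 or 3 gave edgeR adjusted p = 0.0523, 0.0566 and 0.0629, so the call was lost in each of these fits. In CKO mice the log2 fold change was 2.68 (standard error 0.41, adjusted p = 0.000278 by edgeR), or 2.96 (adjusted p = 8.96e-07) without mice 121 and 124, and the groups overlapped only through the mouse labelled CKO 121, whose 72.7 CPM lay within the 42.7 to 78.8 CPM of young CKO mice. Aged CTL and young CKO mice, at 37.6 to 66.4 and 42.7 to 78.8 CPM, overlapped, so that the order of the groups was young CTL, then both of these, then aged CKO.

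Mt2 rose with age in CKO mice, by 4.17 on the log2 scale (standard error 1.08, adjusted p = 0.0113 by edgeR), and by 4.49 (adjusted p = 9.30e-05) without mice 121 and 124. In CTL mice its log2 fold change was 2.22 (standard error 1.28, adjusted p = 0.253 by edgeR), and without mice 121 and 124 it was 2.68 (adjusted p = 0.0166), so that this call depended on them. Mtf1 did not pass the test in either genotype, with log2 fold changes of 0.10 in CTL (standard error 0.23, adjusted p = 0.814 by edgeR) and 0.28 in CKO mice (standard error 0.22, adjusted p = 0.412). Whether the genotype effect on Mt1 and Mt2 differs between ages was not tested, because Mt1 was chosen on both genotype contrasts and Mt2 was included with their results known.

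Among zinc transporters, 17 of the 24 listed genes of the SLC30 and SLC39 families were measured and tested, and 0 passed edgeR's quasi-likelihood test between genotypes at either age, where 0.174% of all genes passed in young and 0% in aged mice. The smallest adjusted p was 0.882 in young and 0.387 in aged mice. Their median log2 fold change was -0.01 in young and -0.08 in aged mice, beside 0.00 over all genes at both ages. The aged median without mice 121 and 124 was -0.11 and the smallest adjusted p was 0.360 by edgeR. Slc30a1, which exports zinc across the plasma membrane and is a target of MTF-1, was at 5.24 to 9.87 CPM in young CTL, 7.12 to 16.2 in young CKO, 5.77 to 9.08 in aged CTL and 6.98 to 12.3 CPM in aged CKO mice. Its log2 fold change was 0.61 (standard error 0.43) in young and 0.32 (standard error 0.48) in aged mice, or 0.42 without mice 121 and 124, and the groups overlapped.

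Slc30a4, an exporter that loads zinc into vesicles, was at 17.7 to 31.1 CPM in aged CTL and 8.08 to 11.8 CPM in aged CKO mice, without overlap (log2 fold change -1.03, standard error 0.35, adjusted p = 0.387 by edgeR). Slc39a14, a zinc and iron importer induced by interleukin 6 in liver, was at 10.5 to 14.5 CPM in aged CTL and 2.44 to 7.78 CPM in aged CKO mice (log2 fold change -1.23, standard error 0.52, adjusted p = 0.443 by edgeR). Without mice 121 and 124 the values were -0.87 for Slc30a4 and -1.38 for Slc39a14 (adjusted p = 0.403 and 0.372 by edgeR). Neither passed this test, although the likelihood ratio test over libraries called Slc30a4, and the mouse labelled CKO 121 (11.5 CPM of Slc30a4) lay with the other CKO mice for this exporter.

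With age, 4 of the 17 transporters were called higher in CTL and 4 in CKO mice, that is 4 of 17 beside 6.7% and 7.21% of all genes, and 0 were called lower in either. In both genotypes these included Slc39a1, an importer at the plasma membrane, with log2 fold changes of 1.98 in CTL (adjusted p = 0.00576 by edgeR) and 1.89 in CKO mice (adjusted p = 0.00492), and Slc39a13, an importer of the secretory pathway, with 1.67 and 1.31 (adjusted p = 0.00531 and 0.0132 by edgeR). In CTL mice Slc30a4 (1.78) and Slc39a11 (0.97) were also called, and in CKO mice Slc39a7 (0.88), which releases zinc from the endoplasmic reticulum, and Slc39a9 (0.95), another member of the importer family. These 4 genes passed in 1 genotype and not in the other, and the difference was not tested. Without mice 121 and 124, Slc30a4 in CTL mice was at 1.57 (adjusted p = 0.0751 by edgeR) and no longer called, and Slc39a7 was called in CTL mice too (0.62, adjusted p = 0.0338). Slc39a1 and Slc39a13 were called in both genotypes whichever single mouse was left out. The 11 SLC39 genes had a median log2 fold change of 0.51 in CTL and 0.88 in CKO mice, whereas the 6 SLC30 genes had 0.09 and -0.14.

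**Figure D4:**
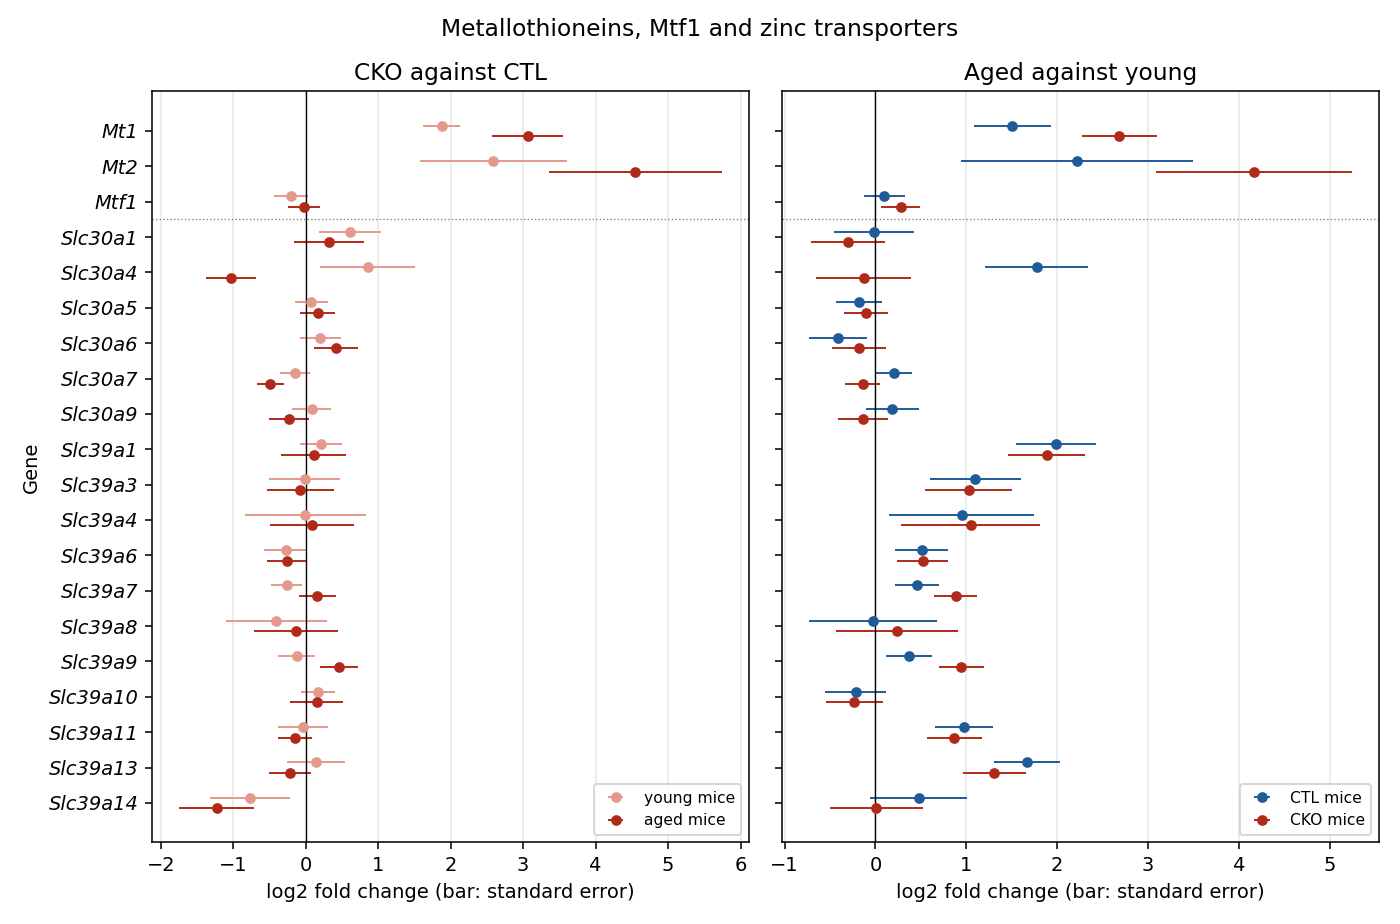
Log2 fold changes (points) with standard errors (bars) of Mt1, Mt2, Mtf1 and 17 zinc transporters, for CKO against CTL mice (left) and aged against young mice (right). Between genotypes Mt1 and Mt2 lie at 1.87 to 4.55 and the transporters at -1.23 to 0.86, and with age several SLC39 importers lie above 0.

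The other lists held genes that share a regulator or a metal with the metallothioneins. Of 107 listed genes apart from Mt1, Mt2 and Mtf1, 95 had a row, and edgeR's quasi-likelihood test over mice between genotypes called 0 of the 87 tested in young and 0 of the 90 tested in aged mice, beside 0.174% and 0% of all genes, so that the count sets the lists apart from no other genes. Without mice 121 and 124 the count in aged mice was also 0. DESeq2 called 1 of them in young mice (Il6ra) and 2 in aged mice (Slc40a1 and Steap3). The likelihood ratio test of edgeR over libraries, in which libraries of a mouse count as replicates, called 2 in young mice (Il6ra and Nfe2l2) and 8 in aged mice (Hsp90aa1, Hsp90ab1, Hspa8, Hsph1, Junb, Pcbp1, Slc25a37 and Slc30a4). The quasi-likelihood test over libraries called Hsp90ab1 in aged mice, and with the library letter as a block it called Nfe2l2 in young mice. In the lists that follow, a call between genotypes is one by the quasi-likelihood test over mice. With age, 20 were called higher and 7 lower in CTL mice, 29.3% of 92 tested, and 17 higher and 11 lower in CKO mice, 30.4% of 92, beside 14.8% and 16.6% of all genes. The totals without mice 121 and 124 were 26 in CTL and 32 in CKO mice: in CTL mice 6 calls were lost and 5 gained, and in CKO mice 1 was lost and 5 gained. Of the genes called with all mice, 18 genes were called in both, in comparisons that share no mice but share the fit and the difference in sample codes. These were 19.6% of 92, beside 8.69% of all 12352 genes called in both. When single mice were left out one by one, 11 of the 27 in CTL mice were called in every fit (Cebpb, Commd1, Cox17, Fth1, Hmox2, Hspe1, Prdx1, Slc39a1, Slc39a13, Stat3 and Txn1), and 16 of the 28 in CKO mice were (Cebpb, Cox17, Fth1, Hmox1, Hmox2, Hspe1, Junb, Prdx1, Slc39a1, Slc39a13, Slc39a9, Slc40a1, Socs3, Sod1, Tfr2 and Txn1). The other age calls among these 27 and 28 listed genes were each lost with at least 1 mouse left out. Calls made only without mice 121 and 124 were not examined in this way.

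Targets of MTF-1 other than metallothioneins did not pass the test between genotypes, 0 of 7 at either age, with medians of 0.13 in young and 0.15 in aged mice on the log2 scale, the latter -0.05 without mice 121 and 124. Slc40a1, the iron exporter ferroportin, had the largest difference of all listed genes in aged mice: it was at 2.98 to 24.7 CPM in CTL and at 0 to 1.63 CPM in CKO mice, without overlap (log2 fold change -3.99, standard error 1.06, adjusted p = 0.297 by edgeR), and its value without mice 121 and 124 was -3.86 (adjusted p = 0.216). Its median in aged CKO mice was 0.574 CPM, beside a limit of 3 counts at 0.292 to 0.584 CPM. The size of this difference thus rests on few counts. In young mice Slc40a1 was at 3.19 to 19.5 and 5.12 to 12.6 CPM. With age it fell in CKO mice by 3.56 on the log2 scale (adjusted p = 0.00677 by edgeR), and the selenoprotein gene Selenow fell by 0.53 (adjusted p = 0.0426). In CTL mice 0 of the 7 targets were called with all mice. Without mice 121 and 124, Gclc, a subunit of the enzyme that starts glutathione synthesis, was called in CTL mice (1.03, adjusted p = 0.00783 by edgeR) and Ndrg1 in CKO mice (0.91, adjusted p = 0.0312).

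In iron handling, 16 genes were tested and 0 were called between genotypes. Hmox1, the inducible heme oxygenase, was at 6.5 to 12.8 CPM in aged CTL and 0 to 4.45 CPM in aged CKO mice, without overlap (log2 fold change -1.86, standard error 0.85, adjusted p = 0.486 by edgeR), or -1.50 (adjusted p = 0.373) without mice 121 and 124. Hmox2, the constitutive heme oxygenase, lay higher in every CKO than in every CTL mouse at both ages, with log2 fold changes of 0.31 and 0.39 (adjusted p = 0.642 and 0.431 by edgeR), and 0.41 in aged mice without mice 121 and 124. With age, Fth1, the ferritin heavy chain, fell in both genotypes (by 0.72 and 0.76 on the log2 scale), as did Hmox2. In CKO mice Hmox1 fell by 2.40 on the log2 scale, Tfr2, a transferrin receptor, rose by 1.07, and Slc25a28, a mitochondrial iron importer, rose in CTL mice by 1.12, or 0.79 (adjusted p = 0.0833 by edgeR) without mice 121 and 124.

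In copper handling, 12 genes were tested and 0 were called between genotypes. Steap3, a metalloreductase, was at 6.31 to 12.1 CPM in aged CTL and 15.5 to 40.1 CPM in aged CKO mice, without overlap (log2 fold change 1.70, standard error 0.39, adjusted p = 0.297 by edgeR). The mouse labelled CKO 121 had the highest value, and without mice 121 and 124 the log2 fold change was 1.39 (adjusted p = 0.182 by edgeR). Sco1, a copper chaperone of mitochondria, had a log2 fold change of 0.59 in young mice (adjusted p = 0.827 by edgeR). With age the mitochondrial copper chaperone Cox17 and the copper regulator Commd1 fell in both genotypes, by 0.83 and 0.86 in CTL and by 0.84 and 0.71 on the log2 scale in CKO mice. Sod1, the copper and zinc superoxide dismutase, rose by 0.88 in CTL (0.70, edgeR adjusted p = 0.0855, without mice 121 and 124) and 1.05 in CKO mice, and Sco2 rose by 0.56 in CTL mice. Leaving out mice 121 and 124 added calls in CTL mice for the copper chaperone Atox1 (-0.64, adjusted p = 0.0303 by edgeR) and Slc31a2 (2.15, adjusted p = 0.0125).

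The list of the oxidative stress factor NRF2 had 13 genes tested in young and 14 in aged mice and 0 called between genotypes. Nfe2l2, which encodes NRF2, had a log2 fold change of 0.59 in young mice (adjusted p = 0.284 by edgeR) without overlap between the groups, and Gclm, the other subunit of the enzyme that starts glutathione synthesis, had 0.60 in aged mice (adjusted p = 0.409), or 0.54 without mice 121 and 124. With age the thioredoxin and peroxiredoxin genes Txn1 and Prdx1 fell in both genotypes (by 1.05 and 1.04 in CTL, by 0.83 and 0.81 in CKO mice, on the log2 scale). Glutathione reductase (Gsr; 0.63 and 0.73) and Osgin1 (1.53 and 1.20) rose in both. Srxn1 rose in CTL mice by 1.23, and Keap1, the inhibitor of NRF2, rose in CKO mice by 0.92.

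Of 10 heat shock genes tested between genotypes, 0 were called. The median log2 fold change over all genes was -0.00093 in young and -0.0033 in aged mice. That of the heat shock genes was -0.06 in young and -0.42 in aged mice, or -0.22 without mice 121 and 124. In aged mice 9 of 10 had a negative value with and without these mice, and Hspa8, a constitutive chaperone, had the smallest p (log2 fold change -0.66, adjusted p = 0.407 by edgeR, or -0.73 without mice 121 and 124). Dnajb1, a cofactor of that family, had 0.34 in young mice (adjusted p = 0.717). With age the mitochondrial chaperonin gene Hspe1 fell in both genotypes, by 1.17 and 1.28 on the log2 scale. In CKO mice Hspa8 fell by 0.68 and Hsf1, the heat shock factor, rose by 0.76, and without mice 121 and 124 Hsp90aa1 and Hspa1b were also called lower (adjusted p = 0.0460 and 0.0362 by edgeR). The log2 fold changes of Hsp90aa1 and Hspa1b without these mice were -0.63 and -5.64. With all mice they were -0.75 and -0.61 (adjusted p = 0.0627 and 0.829 by edgeR).

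Genes that respond to glucocorticoids, another inducer of metallothioneins, were tested in 9 cases in young and 11 in aged mice, and 0 were called between genotypes. Cebpd had a log2 fold change of 1.22 in young mice (adjusted p = 0.571 by edgeR) and the clock gene Per1 had -1.10 in aged mice (adjusted p = 0.562), which was -0.08 without mice 121 and 124. With age all 11 had positive log2 fold changes in both genotypes, with medians of 0.70 and 0.76, whereas without mice 121 and 124 it was 10 of 11 in CTL mice, where Fkbp5 was at -0.04, and 11 of 11 in CKO mice. The medians over all genes were 0.11 and 0.07, and the share of all genes with a positive value is not given here. Of the 11 genes, Tsc22d3 (0.69), Per1 (1.90) and Klf9 (1.68) were called in CTL and Dusp1 (1.26) and Klf9 (1.37) in CKO mice. These are 27.3% and 18.2%, beside 14.8% and 16.6% of all genes. Klf9 in CKO mice was called in 0 of the 9 fits with 1 mouse left out. Without mice 121 and 124, Per1 (1.03, adjusted p = 0.218 by edgeR) and Klf9 (0.80, adjusted p = 0.182) were not called in CTL mice, and Tsc22d3 was called in CKO mice (0.47, adjusted p = 0.0411).

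In the list of STAT3 and acute-phase genes, 9 were tested and 0 were called between genotypes, with positive log2 fold changes for 9 of 9 in young mice (median 0.36) and for 6 of 9 in aged mice (median 0.33), or 5 of 9 (median 0.82) without mice 121 and 124. The median over all genes was -0.00093 in young and -0.0033 in aged mice. The share of all genes with a positive value is not given here. Il6st, the shared receptor chain gp130, had 0.95 in young and -1.19 in aged mice. Il6ra, a chain of the interleukin 6 receptor, was at 0.29 to 3.52 CPM in young CTL and 7.32 to 15.9 CPM in young CKO mice, without overlap (log2 fold change 2.74, standard error 0.69, adjusted p = 0.218 by edgeR). Socs3, a STAT3 target that inhibits its signaling, had 1.60 in young and 1.82 in aged mice (adjusted p = 0.675 and 0.380 by edgeR), and Junb had 0.99 in aged mice (adjusted p = 0.361). The aged values without mice 121 and 124 were 1.73 for Socs3, 0.95 for Junb and -1.43 for Il6st. Leaving out these mice moved Il6ra from 0.33 to 1.02 and turned the direction of Pim1, from 0.08 to -1.21 (adjusted p = 0.687 and 0.436 by edgeR without them). With age, Stat3, Socs3, Junb, Cebpb and the kinase gene Pim1 rose in both genotypes. Log2 fold changes of Stat3, Socs3, Junb and Pim1 were 1.13, 2.31, 0.99 and 2.14 in CTL mice and 0.77, 2.53, 1.65 and 1.91 in CKO mice. Pim1 was at 36.4 to 50.6 CPM in 3 aged CTL mice and at 279.8 CPM in CTL mouse 114, and at 37.0 to 75.1 CPM in 4 aged CKO mice and 328.2 CPM in the mouse labelled CKO 121. Its log2 fold change was 0.86 in CTL mice without mouse 114 (adjusted p = 0.320 by edgeR) and 0.85 in CKO mice without mouse 121 (adjusted p = 0.274), and in CKO mice the call was also lost without mice 121 and 124 (0.85, adjusted p = 0.215). Il6ra (2.47) and Il6st (1.56) also rose in CTL mice, and without mice 121 and 124 Il6ra was at 1.71 (adjusted p = 0.160 by edgeR), while Bcl3 was called in CTL (0.94, adjusted p = 0.0122) and CKO mice (adjusted p = 0.00042).

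Markers of other cell types were followed beside Mt1. Of the megakaryocyte and platelet list, 9 of 11 genes had a row and 0 of these were at 0 in any whole group. Their summed level was 595.2 to 954.8 CPM in young CTL and 1062 to 3205 CPM in young CKO mice, and 402.0 to 665.2 CPM in aged CTL and 621.9 to 2191 CPM in aged CKO mice, where the mouse labelled CKO 121 was the lowest. In young CKO mice most of this sum was Pf4, the platelet chemokine, with a median of 1304 CPM beside a median sum of 1776 CPM. Pf4 was at 296.7 to 637.5 and 745.2 to 2765 CPM in young and at 179.0 to 286.3 and 293.6 to 1382 CPM in aged CTL and CKO mice, with log2 fold changes of 1.80 (adjusted p = 0.0488 by edgeR) and 2.05 (adjusted p = 0.205), or 2.24 in aged mice without mice 121 and 124 (adjusted p = 0.000361). Tubb1, the platelet tubulin, was at 0 to 0.22 CPM in young CTL and 3.61 to 5.16 CPM in young CKO mice, without overlap, and at 0 to 5.56 and 0 to 5.33 CPM in aged CTL and CKO mice. The group median was higher in CKO than in CTL mice for 7 of the 9 genes in young mice, all but Gp9 (82.3 CPM in CTL, 63.6 CPM in CKO) and Gp1ba (25.9 and 23.0 CPM), and for 9 of 9 in aged mice. The part of these genes in the metallothionein levels was not tested, and in bulk samples more cells of a type and more RNA per cell cannot be told apart.

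Summed neutrophil and granulocyte markers (9 of 9 with a row) were at 183.6 to 271.9 CPM in young CTL, 263.0 to 370.5 in young CKO, 209.5 to 548.4 in aged CTL and 318.6 to 565.5 CPM in aged CKO mice, and most of this was the protease gene Prtn3, with medians of 223.0, 297.9, 235.3 and 444.7 CPM. The group median was higher in CKO than in CTL mice for 2 of the 9 genes and lower for 4 in young mice, and higher for 1 and lower for 6 in aged mice. Aged CKO mouse 78, which had the highest Mt1, also had the highest S100a8 (34.8 CPM), S100a9 (24.7), Ngp (29.6), Camp (16.4) and Ltf (8.91 CPM) of any mouse, and Mpo, Elane and Ctsg at 0. Without mouse 78 the log2 fold change of Mt1 in aged mice was 2.85. Aged CTL mouse 114 had the highest Mpo (80.8 CPM) and Ctsg (7.64 CPM), and Elane was at most 3.11 CPM in any mouse. Erythroid markers (7 of 9) summed to 50.2 to 136.1 CPM over all groups, with Hba-a1 at most 2.41 CPM and Klf1, an erythroid transcription factor, at most 59.1 CPM. The carbonic anhydrase gene Car1 was at 0.44 to 16.9 CPM in young CTL and 12.3 to 56.8 CPM in young CKO mice, with medians of 7.19 and 33.3 CPM, and at 0 to 14.5 and 0 to 12.6 CPM in aged CTL and CKO mice. Its median was thus higher in young CKO mice, as was Mt1, with groups that overlapped. Monocyte and macrophage markers (8 of 8) summed to 381.6 to 889.9 CPM, nearly all from Lyz2, with Adgre1 and Fcgr1 at 0 in aged CKO mice. The B cell list (3 of 6) summed to 32.5 to 151.9 CPM, nearly all from Cd79b, which did not overlap between young CTL (78.6 to 88.9 CPM) and young CKO mice (89.8 to 151.9 CPM), with Ms4a1 at 0 in every group, and the T cell list (2 of 7) to 7.46 to 37.4 CPM. The part of these markers in the metallothionein levels was not tested.

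**Figure D5:**
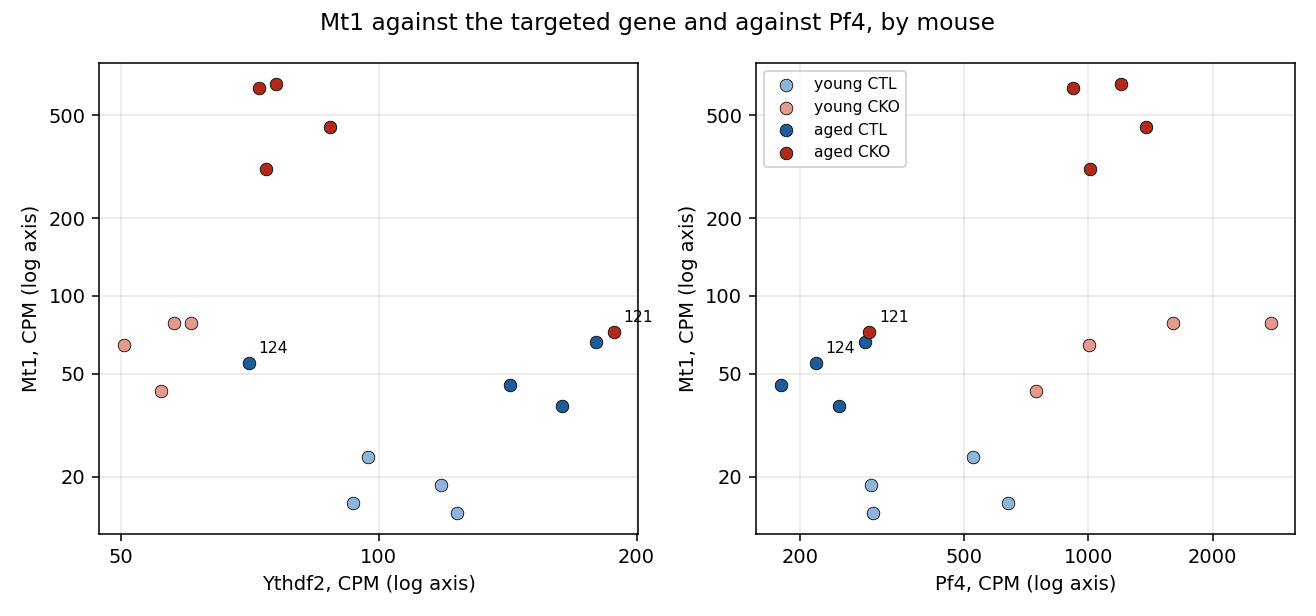
Mt1 against Ythdf2 (left) and against Pf4 (right) in the 17 mice, in CPM on log axes, by group (mice labelled 121 and 124 marked). Mouse 121 lies near aged CTL mice in Ythdf2, Mt1 and Pf4, and mouse 124 lies near the aged CKO mice in Ythdf2 but at 55.2 CPM of Mt1 with the CTL mice.

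The mice whose labels were in doubt thus differed from gene to gene. The mouse labelled CKO 121 was near or within the range of aged CTL mice for Ythdf2, Mt1, Mt2 and Pf4, and within or beyond the range of the other aged CKO mice for Slc40a1 (1.58 CPM), Hmox1 (0 CPM), Slc30a4 (11.5 CPM) and Steap3 (40.1 CPM). The mouse labelled CTL 124 was low in Ythdf2 and lay with the other aged CTL mice in Mt1, and its 24.7 CPM of Slc40a1 and 31.1 CPM of Slc30a4 were the highest of all aged mice.

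The genes next to the metallothioneins on chromosome 8, chosen after the values of Mt1 and Mt2 were seen, had small differences. The 3 nearest tested genes before Mt2 (Nudt21, Ogfod1 and Bbs2) and the 3 after Mt1 (Nup93, Herpud1 and Nlrc5) had log2 fold changes between genotypes from -0.34 to 0.38, and the smallest adjusted p was 0.529 by edgeR (Nup93 in aged mice).

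Within groups, the genes whose pattern over mice was most like that of Mt1 were Prkra, Clu, Rap1b, Fam69a and Imp3. Pearson's r of log2 CPM, after the mean of each group was subtracted, was 0.91, 0.88, 0.88, 0.86 and 0.85 over 17 mice, the highest of 12351 genes. Mt2 had 0.76 (place 44), Pf4 0.75, Mtf1 0.30 and Ythdf2 -0.65. Without mice 121 and 78, the farthest from their group mean in Mt1, r over 15 mice was 0.65, 0.39, 0.58, 0.68 and 0.49 for the 5 genes and 0.08 for Mt2. It was 0.45 for Pf4, -0.09 for Ythdf2 and 0.50 for Mtf1, so that r was lower in size for each of these genes except Mtf1. The points share libraries and depth across genes. Clu, which encodes the secreted chaperone clusterin, was at 32.4 CPM or less in young CTL, 39.5 to 64.5 in young CKO and 49.0 to 132.9 CPM in aged CTL mice. It was at 371.1 to 891.6 CPM in 4 aged CKO mice and at 14.7 CPM in the mouse labelled CKO 121. Rap1b, a small GTPase of platelets and blood cells, was at 624.9 to 988.0 and 1404 to 1888 CPM in young, and at 475.2 to 866.8 and 526.3 to 1695 CPM in aged CTL and CKO mice.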

How the data were processed

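The deposited values were whole-number counts per gene and library, which the authors made by aligning reads to GRCm38 (mm10 in the submitters' processing notes) with HISAT2 and assigning them to genes with Rsubread. They were not normalized. The annotation, strand setting and rule for reads that match several genes are not given in the sources used here. Libraries A and B of a mouse were summed, so p-values measure the spread between mice. Low genes were removed with filterByExpr (a count of at least 10, in total at least 15). After TMM scaling, edgeR 4.0.16 in R 4.3.3 gave quasi-likelihood tests, with Benjamini-Hochberg adjustment over all genes tested and a threshold of 0.05. Genotypes were fitted within each age, and age in 1 fit of 17 mice. Standard errors were derived from the fold change and the F statistic. Log2 CPM used a prior count of 2. The scripts were tested on simulated data. The study's methods name edgeR's likelihood ratio test, which was run over libraries as an alternative.

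The genes, lists and tests were chosen with earlier results of these data known. From each list, the genes called in any of the 4 comparisons were named, together with the smallest p in each genotype comparison, and, as most like Mt1, the 5 genes with the highest within-group r. Other alternatives were DESeq2 1.42.0, its size factors in edgeR, limma 3.58.1 (voom, mouse as a random effect), a quasi-likelihood fit over libraries, no filter or a minimum count of 50, a Y-linked covariate, replicate blocks, 1 fit of all mice, library 99 B included, Mt1 and Mt2 added, and mice left out. Listed genes without a row, such as Mt3 and Mt4, are not analysed here.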

Additional observations from a re-analysis of the deposited data

Results flagged for a closer look

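In 204 groups of 4 or 5 mice examined for the named genes, 12 held 1 mouse farther from the rest than Dixon's limit at 95%, and chance gives about 10.2. Mtf1 was at 63.0 CPM in young CTL mouse 4, against 42.8 CPM in the next mouse. Ythdf2 was at 188.1 CPM in the mouse labelled aged CKO 121, against 87.8 CPM in the next. The same mouse was the highest of its group in Slc39a7 (125.6 CPM), Dusp1 (1797 CPM) and Pim1 (328.2 CPM). The mouse labelled aged CTL 124 was the lowest in Dusp1 (361.7 CPM) and the highest in Klf9 (94.9 CPM), and CTL mouse 114 was the highest in Pim1 (279.8 CPM). Slc30a4 was at 26.9 CPM in young CKO mouse 1, the highest, and at 8.08 CPM in aged CKO mouse 81, the lowest. Osgin1 was at 17.2 CPM in young CTL mouse 1 and Dnajb1 at 443.4 CPM in young CKO mouse 3, both the highest of their groups. The groups of Mt1 and Mt2 held no such mouse by this limit, which was applied to CPM and not to log2 CPM. In log2 CPM, Mt2 was at -1.68 in the mouse labelled CKO 121, against 5.80 in the next aged CKO mouse.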

How the results depend on the processing

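Mt1 and Mt2 were higher in CKO than in CTL mice at both ages under each alternative that gave a value and with each mouse left out. Mt2 had too few counts to be kept in some of the fits. Between genotypes the log2 fold change of Mt1 was 1.53 to 1.97 in young and 2.66 to 3.35 in aged mice under the alternatives, and that of Mt2 was 2.38 to 3.04 and 4.34 to 4.59. With a mouse left out, Mt1 was at 1.78 to 2.03 and 2.85 to 3.33, and Mt2 at 1.96 to 3.58 and 4.08 to 5.08. The direction of Mtf1 in aged mice was not fixed: its log2 fold change between genotypes was 0.000696 with voom, 0.0181 with library 99 B included, and -0.104 to 0.0320 with a mouse left out. With age in CTL mice it was -0.0196 with the Y-linked covariate. The number of genes called in young mice was 77 with DESeq2, 90 with the likelihood ratio test over libraries, 47 with the quasi-likelihood test over libraries, 10 with the Y-linked covariate, 1 in the fit of all mice, and 0 to 18 with a mouse left out. In aged mice it was 104, 420 and 130 with the same 3 tests, 40 without mice 121 and 124, 5 in the fit of all mice, and 0 to 16 with a mouse left out. Listed genes called between genotypes were 1 (DESeq2) and 2 (likelihood ratio test) in young mice and 2 (DESeq2), 8 (likelihood ratio test) and 1 (quasi-likelihood over libraries) in aged mice. The cause was not tested. With age, a mouse left out gave Mt1 in CTL mice 1.35 to 1.66 (edgeR adjusted p from 0.0285 to 0.0629; 0.00139 to 0.0440 under the other alternatives), 896 to 2048 genes and 11 to 24 listed genes called in CTL mice, and 1183 to 1975 and 18 to 25 in CKO mice. Mt2 in CTL mice was called without mice 121 and 124 (2.68, edgeR adjusted p = 0.0166; 0.144 to 0.447 with 1 mouse left out), and the quasi-likelihood fit over libraries, the age fits with the Y-linked covariate, the age fits and the summed Mt1 and Mt2 fit without mice 121 and 124, and the calls of single listed genes with a mouse left out were chosen after seeing the data.

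Young mice of both genotypes share numbers but are different animals, and same-numbered mice did not deviate together (r from -0.04 to 0.05), with 3 of 8 closest to the mouse of their own number. A block on the mouse number gave a log2 fold change of 1.86 for Mt1 and 3.04 for Mt2 in young mice and 14 called genes. A block on the library letter, over libraries, gave 1.95 for Mt1 in young and 2.99 in aged mice, 50 called genes in young and 40 in aged mice, and 1 listed gene in young mice. Depth limits Mt2: below about 1 CPM, it was at or near the limit of 3 counts in young CTL mice.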
